A study of Homo sapiens with 8 samples.

Results

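Cadherins, protocadherins, claudins and keratins hold epithelial cells to each other and give them an inner scaffold. The genes described here are the protein-coding genes named CDH, PCDH, CLDN or KRT with a number whose mean normalized count over all libraries was at least 10. The naming rule matched 161 of 58884 genes in the table, and 43 of those reached that mean: 9 cadherins of 23, 16 protocadherins of 64, 9 claudins of 24 and 9 keratins of 50. Of the other 118 genes, 31 had no read in any library. Among these, KRT12, KRT20, KRT23, KRT31, KRT34, KRT37, KRT39 and KRT40 have transcripts outside the primary assembly. For them a lack of reads may not mean a lack of RNA, and this was not tested.

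Classical cadherins are calcium-dependent adhesion proteins whose tails bind catenins at adherens junctions. Claudins form the strands of tight junctions, and each sets which ions pass between cells. Keratins are intermediate filaments that assemble as pairs of a type I and a type II chain, and in luminal prostate epithelium the main pair is KRT8 with KRT18. Protocadherins are cadherin-related proteins known best from neurons, where the alpha, beta and gamma clusters give single cells distinct surface identities.

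RNA was sequenced from C4-2, a castration-resistant human prostate cancer line of the LNCaP lineage. There were 4 libraries of cells given 1 µM DTHIB (E12) for 48 h and 4 of cells given its solvent DMSO; the labels describe DTHIB as a direct inhibitor of HSF1, the main activator of heat shock genes. Both groups are the same single line in medium with serum, poly(A) RNA was enriched, and the labels do not say that the libraries of a group came from separate cultures, so p-values measure the spread between libraries, which may be technical. The comparison asks how these genes differed under the compound.

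Libraries held 27229291 to 29159387 reads with DTHIB and 29499458 to 30926053 with DMSO. Values below are the authors' normalized counts, which are reads divided by a factor per library. Across genes, Pearson correlations on the log2 scale were 0.993 to 0.994 within groups and 0.973 to 0.981 between groups, and genes are not independent replicates. Of 12 luminal prostate markers, 10 were higher and 1 lower with DTHIB, against 31.0% and 33.7% of all tested genes. Their summed level was 324981 to 327985 with DTHIB and 251377 to 256166 with DMSO. Of 10 basal markers 6 were tested, 2 higher (LAMA3 and ITGA6) and 3 lower (KRT15, LAMB3 and DST). Their summed level was 9869 to 11469 with DTHIB and 7537 to 8216 with DMSO. Most of that sum was LAMA3, at 8192 ± 786 with DTHIB and 5586 ± 281 with DMSO, so it does not describe the basal markers as a set. KRT5 and KRT17 had 2 reads each over all 8 libraries. Of the markers of other cells, 4 of 8 stromal genes (2 higher, 1 lower), 3 of 8 neuroendocrine genes (1 higher, 2 lower) and 3 of 7 blood genes (1 lower) reached the mean of 10. The part of these marker shifts in the results below was not tested, and in bulk RNA fewer cells of a type and less RNA per cell cannot be told apart.

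In DTHIB-treated cells CDH1 and CLDN7 rose, KRT8, KRT18, KRT19, CLDN3 and CLDN4 fell, PCDH7 fell and the gamma A and B protocadherins rose. By limma with Benjamini-Hochberg adjustment over all 17194 tested genes at 0.05, 14 of the 43 genes were higher, 16 were lower and 13 did not pass. Over all tested genes 64.6% passed, 31.0% higher and 33.7% lower, so these counts lie near the background. Fold changes are DTHIB minus DMSO on log2 of the normalized count plus 1, and their median was -0.03 for the 43 genes and -0.01 for all tested genes. At least 2-fold changes that passed were more frequent here, in 8 of the 43 against 7.96% of all tested genes. Of these, 7 were among the 24 genes with a mean under 100, and the difference was not tested. Libraries of the 2 groups did not overlap for 25 of the 43, against 57.9% of all tested genes; DTHIB was above in 9 (27.1% of all genes) and below in 16 (30.8%). There were 4 genes that reached the mean of 10 with a DTHIB mean below it (CLDN5, KRT73, KRT15 and KRT72) and 4 with a DMSO mean below it (PCDHGB5, PCDH15, PCDH17 and PCDHGA6); such genes enter through 1 group, so the counts are a description.

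The families differed in their balance. Cadherins had 2 higher and 2 lower genes and a median log2 fold change of -0.00, protocadherins 9 higher and 3 lower with 0.63, claudins 2 higher and 5 lower with -0.17, and keratins 1 higher and 6 lower with -0.47. Over all tested genes 31.0% were higher and 33.7% lower. The balance of the protocadherins came from the gamma cluster, since 8 of the 9 higher genes were its A and B genes. The 7 non-clustered protocadherins had 1 higher and 2 lower, with a median of 0.20. These differences between families are counts and were not tested.

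**Figure D1:**
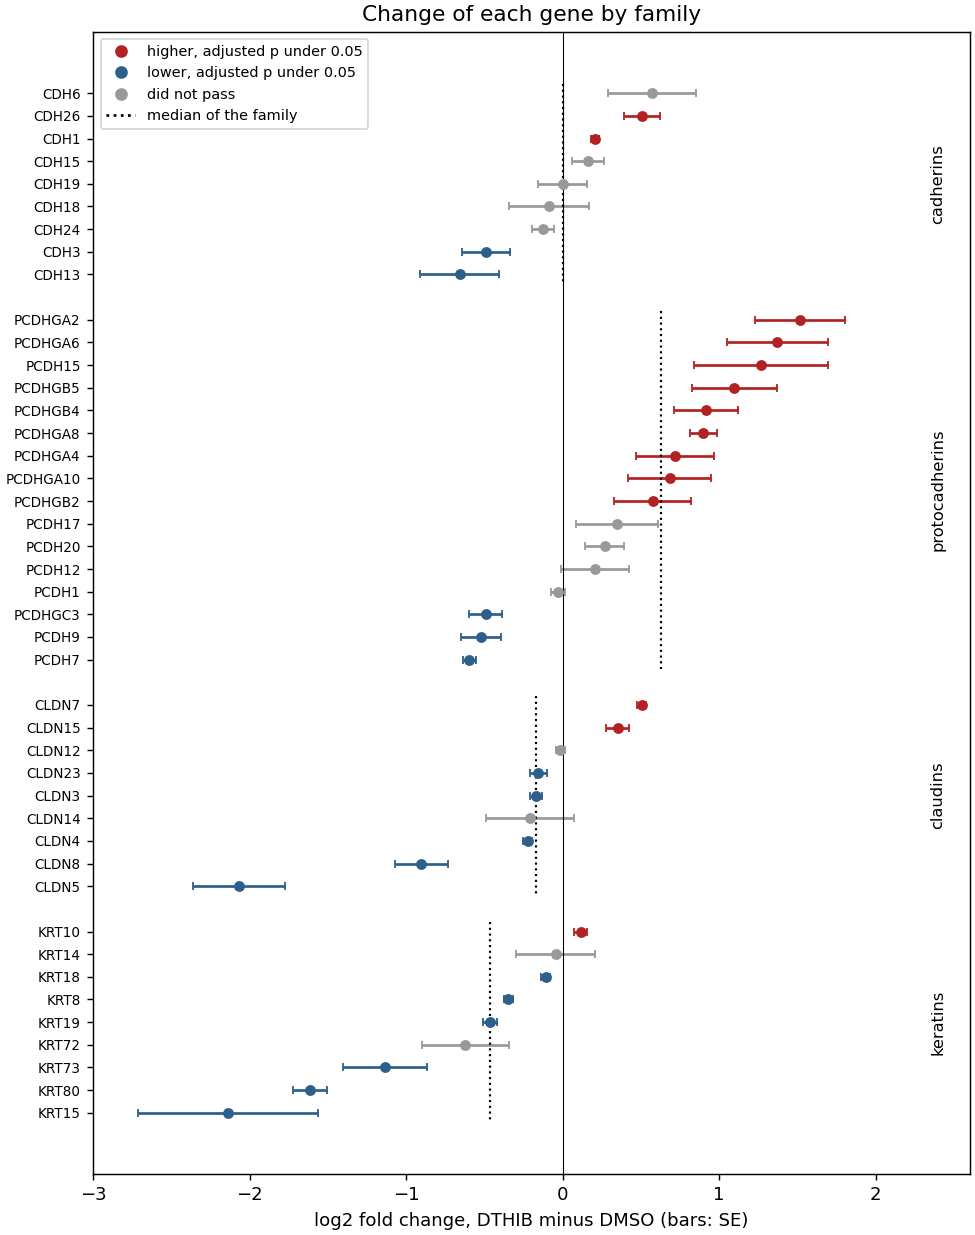
Log2 fold change of each of the 43 genes (x axis, DTHIB minus DMSO, bars show the SE), grouped by family, with the family median as a dotted line. Protocadherins have 9 genes to the right that passed, and keratins have 6 to the left, with KRT15 at -2.14 and KRT80 at -1.61.

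A single gene carried the cadherin RNA. CDH1, E-cadherin of epithelial adherens junctions (chr16:68737225-68835548; all positions are GRCh38), had 11945, 12408, 12294 and 11907 normalized counts with DTHIB, against 10589, 10563, 10405 and 10580 with DMSO. All DTHIB libraries lay above all DMSO libraries. The means were 12138 ± 250 with DTHIB and 10534 ± 86.6 with DMSO (SD, n = 4 each), and the rise was 0.20 on the log2 scale (SE 0.026, adjusted p = 2.6e-06). CDH1 made up 94.1% of the normalized counts of the 9 cadherins with DTHIB and 93.3% with DMSO. CDH2, the N-cadherin of mesenchymal and neural cells, had 3 reads over the 8 libraries, and CDH11 had none.

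CDH26, a cadherin-like protein of epithelial cells (chr20:59958427-60034011), had 122, 172, 141 and 135 normalized counts with DTHIB, against 91.0, 103, 103 and 99.2 with DMSO. The groups did not overlap, and the rise was 0.51 (SE 0.11, adjusted p = 8.2e-04). CDH24, a type II cadherin, averaged 324 ± 19.8 with DTHIB and 354 ± 24.1 with DMSO, and did not pass (adjusted p = 0.113), but passed as lower with a trend with GC content and exonic length removed (-0.18, adjusted p = 0.0264). CDH15, the cadherin of muscle precursors, averaged 146 ± 8.63 with DTHIB and 131 ± 15.01 with DMSO, and did not pass either (adjusted p = 0.173). The 5 other cadherins had means under 100. CDH3, P-cadherin, a neighbour of CDH1 on chromosome 16 and typical of basal epithelium, fell by 0.49 (adjusted p = 0.0105) to 42.4 ± 5.91 with DTHIB, against 59.9 ± 7.43 with DMSO, with overlapping groups. CDH13, T-cadherin, which is anchored by a lipid and has no tail, fell by 0.66 (adjusted p = 0.0300). That call depended on single libraries, since the adjusted p was 0.0688 without DTHIB replicate 2, 0.101 without DTHIB replicate 4, 0.0583 without DMSO replicate 3 and 0.110 without DMSO replicate 4. It was 0.0706 with no filter on low values and 0.0774 by DESeq2. CDH6, CDH18 and CDH19 did not pass, with log2 fold changes of 0.57, -0.09 and -0.00; CDH6 passed without DTHIB replicate 3 (0.78, adjusted p = 0.0233).

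Of the other cadherin-related genes outside the naming rule, 10 were tested, 7 were higher and none lower by limma (median log2 fold change 0.23). Over all tested genes 31.0% were higher and 33.7% lower, and the difference from that background was not tested. CLSTN3, a calsyntenin of synapses, rose by 0.42 (adjusted p = 1.4e-07). CELSR3 rose by 0.49 (adjusted p = 5.4e-06), and CELSR1 and CELSR2 by 0.21 and 0.24; the CELSR proteins act in planar cell polarity. With the GC and length trend removed, CELSR1 was at 0.076 (adjusted p = 0.0805) and CELSR2 at 0.10 (adjusted p = 0.0480).

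**Figure D2:**
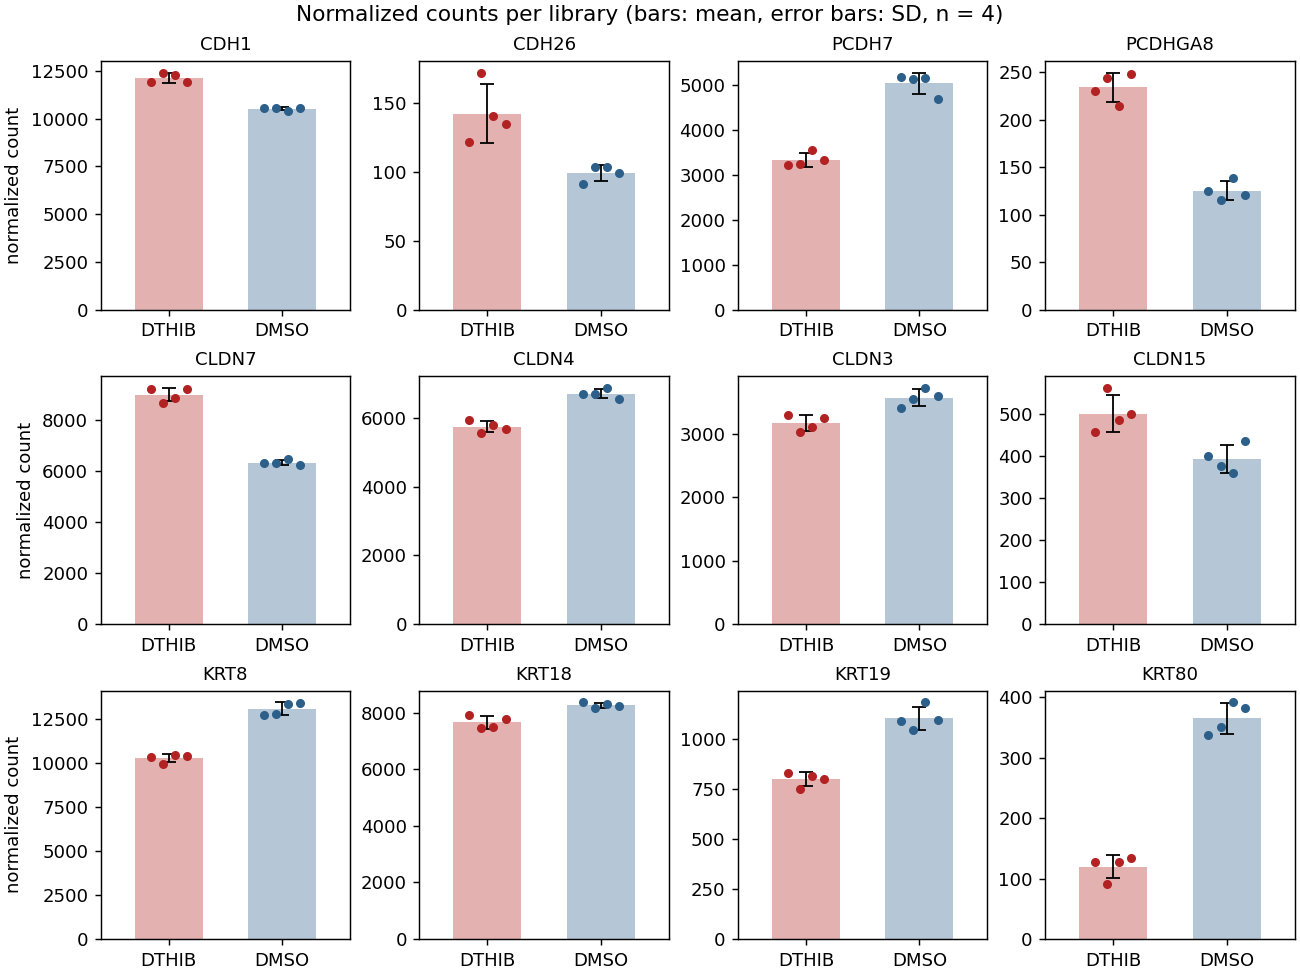
Normalized counts of 4 cadherins and protocadherins, 4 claudins and 4 keratins (bars show the mean of 4 libraries, error bars the SD, points the libraries; DTHIB left of DMSO; each panel has its own axis from 0). CDH1 and CLDN7 are higher in every DTHIB library, and KRT8, KRT19 and PCDH7 lower in every one.

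Among the abundant claudins, CLDN7 rose while CLDN3 and CLDN4 fell. CLDN7 lies on the basolateral side of many epithelia (chr17:7259903-7263983). It had 9204, 8670, 8870 and 9226 normalized counts with DTHIB, against 6316, 6295, 6474 and 6241 with DMSO, with no overlap. It rose by 0.51 (SE 0.029, adjusted p = 9.3e-11), and 12.32% of its exonic bases are shared with other genes. CLDN3 and CLDN4, neighbours on chromosome 7 and both receptors of Clostridium perfringens enterotoxin, went the other way. CLDN4 (chr7:73799542-73832693) had 5937, 5568, 5805 and 5667 normalized counts with DTHIB, against 6697, 6685, 6879 and 6548 with DMSO, and fell by 0.22 (SE 0.029, adjusted p = 3.6e-06). CLDN3 (chr7:73768997-73770270) had 3302, 3030, 3114 and 3244 with DTHIB, against 3413, 3546, 3730 and 3596 with DMSO, and fell by 0.17 (SE 0.035, adjusted p = 4.5e-04). Neither gene had overlapping groups. The fall of CLDN3 was 0.09 after quantile normalization (adjusted p = 0.0282) and 0.38 with the GC and length trend removed.

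CLDN12, which lacks the usual PDZ-binding end of claudins, averaged 6342 ± 148 with DTHIB and 6414 ± 137 with DMSO (log2 fold change -0.02, adjusted p = 0.630), but passed as higher after quantile normalization (0.06, adjusted p = 0.0328) and with the GC and length trend removed (0.07, adjusted p = 0.0381). As a share of the normalized counts of the 9 claudins, CLDN7 held 35.6% ± 0.634 with DTHIB and 26.4% ± 0.259 with DMSO. CLDN4 held 22.7% ± 0.330 with DTHIB and 27.9% ± 0.395 with DMSO. CLDN4 was thus the most counted claudin in DMSO cells and CLDN7 in DTHIB cells. The sum over the 9 claudins was 25258 ± 436 with DTHIB and 24021 ± 416 with DMSO.

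Of the less abundant claudins, CLDN15, which forms a cation pore in the gut (chr7:101232092-101238820), had 457, 564, 486 and 501 normalized counts with DTHIB, against 400, 377, 360 and 436 with DMSO. The groups did not overlap and the rise was 0.35 (SE 0.072, adjusted p = 4.0e-04). CLDN23 fell by 0.16 (adjusted p = 0.0184) to 446 ± 15.4 with DTHIB, against 498 ± 23.7 with DMSO. That fall missed the threshold when DTHIB replicate 1 (adjusted p = 0.0522), DMSO replicate 3 (adjusted p = 0.0575) or DMSO replicate 4 (adjusted p = 0.0597) was left out, after quantile normalization (adjusted p = 0.0612) and by DESeq2 (adjusted p = 0.0722), and the gene has transcripts outside the primary assembly. CLDN5, the claudin of the blood-brain barrier (chr22:19523024-19527545), had 5.21, 5.21, 14.98 and 6.98 normalized counts with DTHIB, against 35.4, 40.19, 29.9 and 32.1 with DMSO. Every DTHIB library was below every DMSO library, and it fell by 2.07 (SE 0.29, adjusted p = 9.2e-06), the largest fall among the claudins. CLDN8, a barrier claudin of the distal nephron, fell by 0.91 (adjusted p = 1.7e-04), and CLDN14 did not pass (-0.21).

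The other junction genes are given as counts, beside 31.0% higher and 33.7% lower over all tested genes, and the difference from that background was not tested. Of 20 tested tight junction genes other than claudins, 4 were higher and 11 lower (median log2 fold change -0.22). The scaffold MAGI1 rose by 0.49 (adjusted p = 3.9e-09), the cingulin paralogue CGNL1 by 0.93 (adjusted p = 6.7e-08) and the polarity scaffold PATJ by 0.31, while LSR, which recruits tricellulin to tricellular junctions, fell by 0.23. Of 12 tested adherens junction partners, 3 were higher and 7 lower (median -0.17). CTNNB1, beta-catenin, which binds the E-cadherin tail, fell by 0.34 (adjusted p = 9.0e-09) to 10539 ± 276 with DTHIB, against 13334 ± 177 with DMSO, in the libraries in which CDH1 rose. The adhesion receptor NECTIN1 fell by 0.61 (adjusted p = 5.5e-11), the actin linker VCL fell by 0.21 and NECTIN4 rose by 0.34. Of 13 tested desmosome genes, which anchor keratins, 3 were higher and 8 lower (median -0.17). The desmosomal cadherins DSG2 and DSC1 fell by 0.32 and 1.18, PKP4 fell by 0.39 and the linker EVPL rose by 0.40. After quantile normalization the falls of VCL and LSR were 0.12 and 0.15, still past the threshold.

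**Figure D3:**
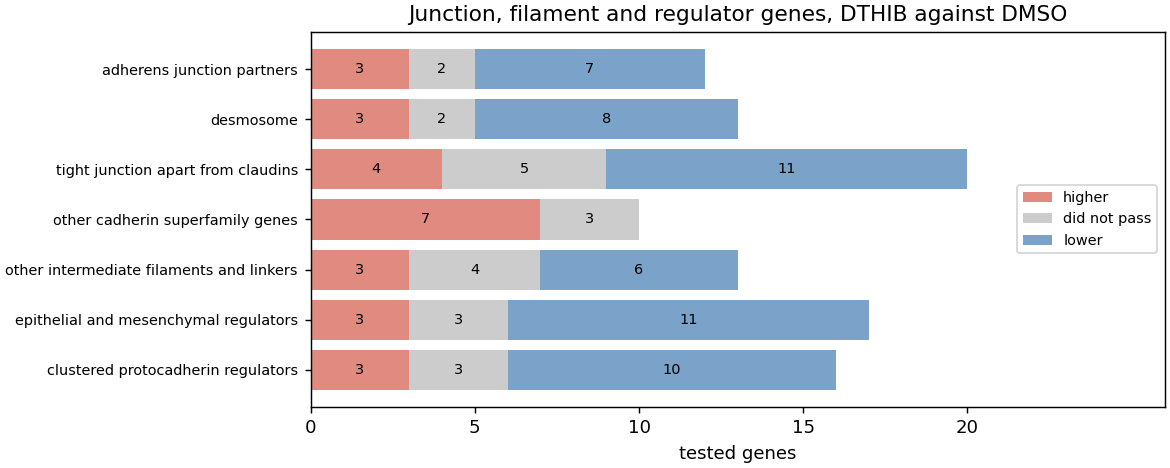
Number of tested genes (x axis) that were higher, did not pass or were lower with DTHIB in each of 7 gene lists. Of the cadherin superfamily genes outside the naming rule none was lower, while the other lists have more lower than higher genes.

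Of the 9 keratins 6 fell, among them both chains of the luminal pair. KRT8, the type II chain (chr12:52897187-52949954), had 10329, 9949, 10428 and 10373 normalized counts with DTHIB, against 12695, 12801, 13356 and 13419 with DMSO. KRT18, its type I partner and neighbour (chr12:52948871-52952901), had 7917, 7463, 7492 and 7791 with DTHIB, against 8370, 8161, 8318 and 8236 with DMSO. Neither gene had overlapping groups. KRT8 fell by 0.35 (SE 0.029, adjusted p = 1.3e-08) and KRT18 by 0.11 (SE 0.028, adjusted p = 0.0024). The log2 ratio of KRT8 to KRT18 within a library was 0.42 ± 0.039 with DTHIB and 0.66 ± 0.045 with DMSO (n = 4 each). The difference of -0.24 gave p = 0.0286 in a two-sided exact permutation test, the smallest p that 4 against 4 libraries can give, and it was the 1 ratio tested. The pair held 88.5% of keratin counts with DTHIB and 88.4% with DMSO.

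The KRT8 and KRT18 genes overlap on opposite strands over 7.63% of KRT8 and 16.3% of KRT18 exonic bases. The sources used here do not give the strand setting of the counting, so reads there cannot be assigned with certainty. Processed pseudogenes could also take reads. The 51 KRT8 pseudogenes in the table summed to 375 ± 9.59 normalized counts with DTHIB and 408 ± 13.4 with DMSO, which is 3.65% and 3.13% of KRT8. The 67 KRT18 pseudogenes summed to 64.6 ± 8.04 with DTHIB and 72.4 ± 10.5 with DMSO.

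KRT19, a short keratin of simple and ductal epithelia (chr17:41523617-41528308), had 830, 750, 818 and 802 normalized counts with DTHIB, against 1092, 1046, 1185 and 1098 with DMSO. It fell by 0.47 (SE 0.047, adjusted p = 1.9e-07). KRT80, a type II keratin (chr12:52168996-52192000), had 128, 90.7, 127 and 134 with DTHIB, against 337, 350, 392 and 382 with DMSO. The highest DTHIB library was less than the lowest DMSO library in both genes, and KRT80 fell by 1.61 (SE 0.11, adjusted p = 9.2e-10), the largest fall among the 19 genes with a mean of at least 100. KRT10, the type I keratin of differentiating epidermis, was the exception in direction. It averaged 1363 ± 32.1 with DTHIB and 1260 ± 71.2 with DMSO, with overlap, and rose by 0.11 (adjusted p = 0.0258), or by 0.19 after quantile normalization. Without DTHIB replicate 4, DMSO replicate 1 or DMSO replicate 2 that rise did not pass (adjusted p = 0.0686, 0.0754 and 0.0906).

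The remaining keratins were near the detection limit. KRT15, a keratin of basal cells (chr17:41513743-41522529), had 9.38, 0, 3.00 and 11.97 normalized counts with DTHIB, against 22.0, 22.0, 20.3 and 17.0 with DMSO. It fell by 2.14 (SE 0.57, adjusted p = 0.0036), and by 1.38 without DTHIB replicate 2, the library with no read, or by 1.35 with a pseudocount of 5. KRT73, of the inner root sheath of hair (chr12:52607570-52618559), had 8.34, 11.5, 7.99 and 10.97 with DTHIB, against 20.1, 16.3, 21.2 and 35.1 with DMSO. Groups did not overlap in either gene, but 37.8% of the KRT73 exonic bases lie across an antisense gene, KRT73-AS1, so its fall of 1.14 (SE 0.27, adjusted p = 0.0014) is uncertain in origin. KRT72, its neighbour, did not pass (-0.62, adjusted p = 0.0580) although the groups did not overlap, and passed without DMSO replicate 3 (adjusted p = 0.0443), after quantile normalization (-0.75, adjusted p = 0.0226) and with the GC and length trend removed (-0.67, adjusted p = 0.0439). KRT14, the basal keratin, was at -0.04 and did not pass; KRT14 and KRT15 are also among the basal markers above.

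Of 13 tested genes for other intermediate filaments and their linkers, 3 were higher and 6 lower, against 31.0% and 33.7% of all tested genes. Their median log2 fold change was -0.29. The nuclear lamins LMNB1 and LMNB2 fell by 1.34 (adjusted p = 1.2e-12) and 0.58 (adjusted p = 5.9e-10), and nestin, NES, by 0.49. Epiplakin, EPPK1, which binds keratin filaments, rose by 0.77 (adjusted p = 2.0e-09), and by 0.49 with the GC and length trend removed.

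Expressed per kilobase of exonic sequence not shared with another gene, the order of the abundant genes differed between the groups. In DTHIB cells CLDN7 had 4116 ± 124 normalized counts per kilobase, KRT18 2846 ± 83.0, CLDN3 2490 ± 96.9, CDH1 2082 ± 43.0 and KRT8 1616 ± 34.2. In DMSO cells KRT18 had 3071 ± 34.1, CLDN7 2898 ± 45.8, CLDN3 2803 ± 103, KRT8 2056 ± 58.7 and CDH1 1807 ± 14.9. In DMSO cells the gap between CLDN7 and CLDN3 was within the SD of CLDN3 but not that of CLDN7. The counts are those of the whole gene, while the lengths leave shared bases out. How reads over the shared bases of these genes were counted is not known. The length was 2693 of 3218 exonic bases for KRT18, 2185 of 2492 for CLDN7 and all 1274 for CLDN3. Genes with shared bases may thus be placed too high. The order of KRT18 and CLDN3 depends on the length used, as does that of CLDN7 and CLDN3 in DMSO cells. The lengths join all annotated exons of a gene, so genes with many alternative exons, such as KRT8, are placed low.

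**Figure D4:**
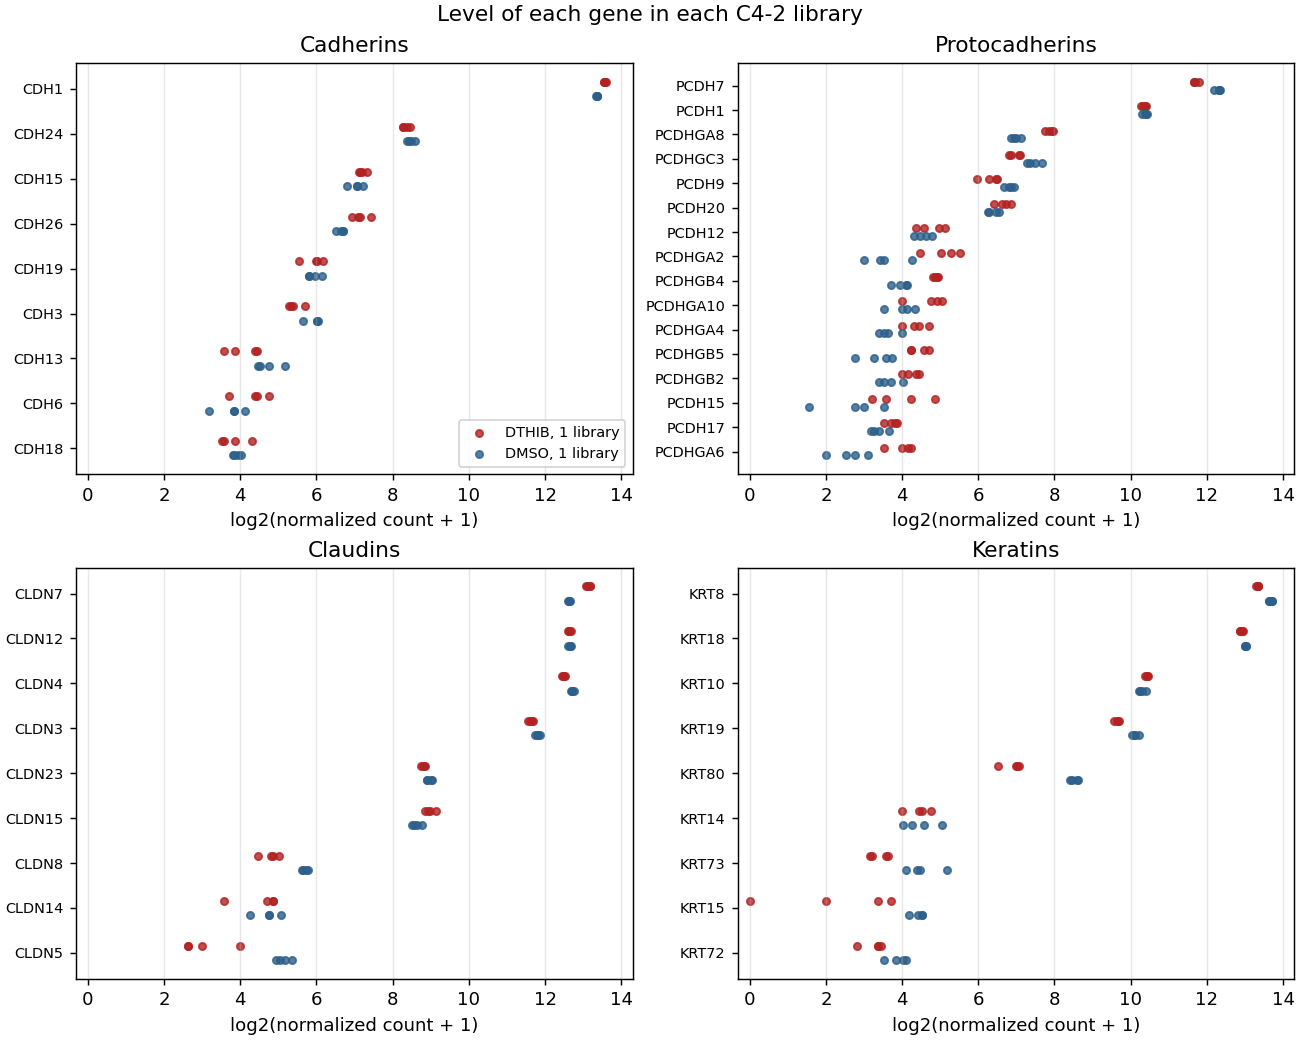
Level of each of the 43 genes in each library (x axis, log2 of the normalized count plus 1), with 1 point per library, 1 panel per family and DTHIB points drawn above DMSO points. CDH1 stands far above the other cadherins in all libraries, 4 claudins lie together at the top, and most gamma protocadherins lie low, with DTHIB points to the right of DMSO points.

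The protocadherins moved in opposite directions. PCDH7, a non-clustered protocadherin whose tail binds protein phosphatase 1 (chr4:30720415-31146805), had 3212, 3233, 3563 and 3329 normalized counts with DTHIB, against 5180, 5138, 5151 and 4695 with DMSO. All DTHIB libraries were below all DMSO libraries, and the fall was 0.60 (SE 0.039, adjusted p = 6.5e-10). PCDH7 held 61.9% of protocadherin counts with DTHIB and 72.2% with DMSO. The family sum was 5388 ± 84.9 with DTHIB and 6982 ± 215 with DMSO, lower with DTHIB while more of its genes rose than fell. PCDH1, found in airway epithelium, averaged 1299 ± 57.5 with DTHIB and 1327 ± 53.2 with DMSO and did not pass (-0.03, and 0.04 after quantile normalization). PCDH9 fell by 0.52 (adjusted p = 0.0020). PCDH15, part of the tip links of hair cells (chr10:53802771-55627942), had 28.1, 8.34, 10.99 and 18.0 with DTHIB, against 1.92, 5.74, 10.6 and 7.01 with DMSO. The groups overlapped, and its rise of 1.27 (SE 0.43, adjusted p = 0.0156) was lost when DTHIB replicate 1 (adjusted p = 0.0702) or DMSO replicate 1 (adjusted p = 0.0573) was left out. PCDH12, PCDH17 and PCDH20 did not pass, with log2 fold changes of 0.20, 0.35 and 0.27. PCDH20 passed without DTHIB replicate 4 (0.35, adjusted p = 0.0271), by edgeR (0.29, adjusted p = 0.0436) and with the GC and length trend removed (0.38, adjusted p = 0.0108), and 95.8% of its exonic bases are shared with another annotated gene.

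The gamma cluster on chromosome 5 has 22 genes, each with its own promoter and first exon spliced to constant exons that all share. Of these, 9 were among the 43: 5 of type A, 3 of type B and PCDHGC3. All 8 type A and B genes were higher with DTHIB and PCDHGC3 was lower. A stretch of each promoter is printed here because the genes of the cluster share a conserved element with the core CGCT. The 60 bases are from RefSeq (GRCh38.p14, plus strand, 5′ to 3′), and capitals mark CGCTGTT or, in PCDHGC3, CGCTGTC.
PCDHGA2, chr5:141338687-141338746: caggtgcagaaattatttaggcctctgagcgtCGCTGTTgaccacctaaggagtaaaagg
PCDHGA4, chr5:141354944-141355003: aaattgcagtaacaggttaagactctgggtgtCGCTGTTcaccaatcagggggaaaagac
PCDHGB2, chr5:141359905-141359964: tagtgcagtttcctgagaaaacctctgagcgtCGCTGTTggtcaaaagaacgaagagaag
PCDHGA6, chr5:141373819-141373878: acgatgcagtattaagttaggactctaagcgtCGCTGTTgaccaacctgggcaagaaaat
PCDHGB4, chr5:141387601-141387660: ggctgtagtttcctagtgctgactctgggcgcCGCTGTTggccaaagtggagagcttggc
PCDHGA8, chr5:141392552-141392611: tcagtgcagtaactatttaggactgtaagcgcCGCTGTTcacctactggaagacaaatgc
PCDHGB5, chr5:141397847-141397906: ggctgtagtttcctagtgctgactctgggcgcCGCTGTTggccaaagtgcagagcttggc
PCDHGA10, chr5:141412915-141412974: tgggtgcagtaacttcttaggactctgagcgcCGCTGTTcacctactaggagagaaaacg
PCDHGC3, chr5:141475864-141475923: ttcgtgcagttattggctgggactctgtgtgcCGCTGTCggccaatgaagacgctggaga

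The capitals began 40 to 70 bases before the RefSeq start in 8 of the genes and 199 bases before it in PCDHGB2. In the 250 bases before the start, read on both strands, CGCTGT was found in all 9 of these genes and in 10.6% of 27305 genes with a window. CGCTGTT, which contains it, was found in 8 of the 9 (not PCDHGC3), in 13 of the 18 gamma A and B genes with a window and in 2.18% of all genes. It was in none of the 13 alpha genes and 1 of the 14 beta genes with a window, and in none of the 18 genes here outside the gamma cluster that have a window. CGCTGT, in contrast, was in 7 of those 13 alpha genes, 1 of those 14 beta genes and 2 of those 18 genes. The shorter CGCT was in 12 of the 13 alpha genes, 13 of the 14 beta genes and 67.2% of all genes. These letters were chosen after the windows were seen, and a match is a description of the sequence.

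PCDHGA8 (chr5:141390157-141512979) was the most counted gamma gene in the DTHIB libraries and PCDHGC3 in the DMSO libraries. PCDHGA8 had 230, 244, 215 and 248 normalized counts with DTHIB, against 125, 116, 139 and 121 with DMSO. All DTHIB libraries were above all DMSO libraries, and the rise was 0.90 (SE 0.088, adjusted p = 1.1e-07). PCDHGC3, a C-type gene near the constant exons (chr5:141475947-141512979), had 132, 116, 136 and 111 with DTHIB, against 153, 163, 179 and 203 with DMSO. Here all DTHIB libraries were below all DMSO libraries, and it fell by 0.49 (SE 0.11, adjusted p = 6.7e-04).

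The other type A and B genes had means under 25. PCDHGA2 had 44.8, 31.3, 20.97 and 37.9 normalized counts with DTHIB, against 10.5, 18.2, 9.65 and 7.01 with DMSO, and rose by 1.52 (SE 0.29, adjusted p = 2.1e-04), the largest rise of the 43 genes. PCDHGA6 had 10.4, 16.7, 14.98 and 18.0 with DTHIB, against 7.66, 4.78, 5.79 and 3.01 with DMSO, and rose by 1.37 (SE 0.32, adjusted p = 0.0013). PCDHGB5 had 17.7, 25.0, 18.0 and 22.9 with DTHIB, against 8.62, 12.44, 5.79 and 11.02 with DMSO, and rose by 1.10 (SE 0.27, adjusted p = 0.0020). In these 3 genes every DTHIB library was above every DMSO library. PCDHGB4 rose by 0.91 (adjusted p = 8.4e-04), also without overlap. PCDHGA4, PCDHGA10 and PCDHGB2 rose by 0.72, 0.68 and 0.58 (adjusted p = 0.0183, 0.0318 and 0.0491), and their groups overlapped. The call of PCDHGA4 was lost when DTHIB replicate 2 was left out (adjusted p = 0.0647). The call of PCDHGA10 was lost on leaving out DTHIB replicate 1, 2 or 4 or DMSO replicate 1 or 4 (adjusted p = 0.0520 to 0.102). The call of PCDHGB2 was lost on leaving out DTHIB replicate 1, 2 or 4 or DMSO replicate 1, 3 or 4 (adjusted p = 0.0638 to 0.121). Of the 8 genes, 5 passed without DTHIB replicate 2. With no filter on low values PCDHGA4, PCDHGA10 and PCDHGB2 did not pass (adjusted p = 0.0654, 0.0710 and 0.155). PCDHGA10 and PCDHGB2 also did not pass after quantile normalization (adjusted p = 0.0761 and 0.134), nor PCDHGA4 and PCDHGB2 by DESeq2 (adjusted p = 0.0586 and 0.147).

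**Figure D5:**
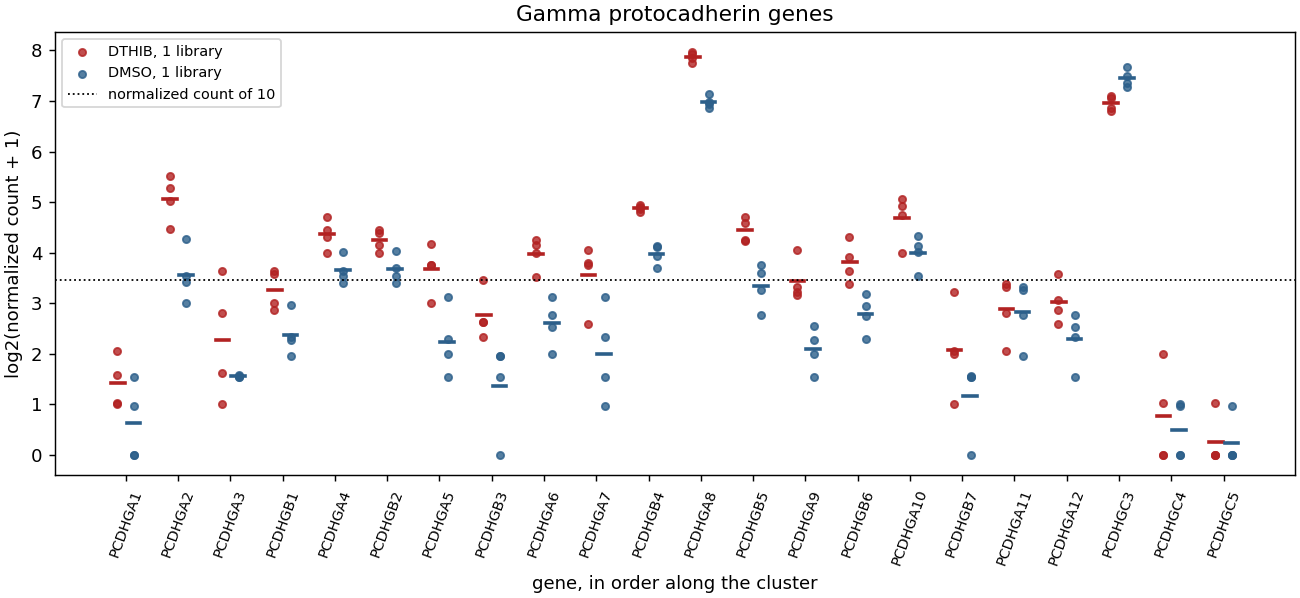
Level of the 22 gamma cluster genes in each library (y axis, log2 of the normalized count plus 1; points are libraries, lines their mean, DTHIB left of DMSO), in their order along chromosome 5; the dotted line marks a normalized count of 10. PCDHGA8 and PCDHGC3 stand above the rest, the first higher with DTHIB and the second lower.

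Gamma genes too low to be tested had the same direction of means. Low genes also leaned upward in general. Over all genes, 47.9% of the calls were higher at a mean of at least 10, and 44.9% at a mean of at least 50. The part of that lean in the gamma result was not tested. All 19 type A and B genes in the table had a higher mean with DTHIB, including the 11 with a mean under 10. PCDHGC4 and PCDHGC5 did too, at means of only 0.75 and 0.25 over all libraries. Of the 11 low genes, 3 had groups that did not overlap. DTHIB was above without overlap in 27.1% of all tested genes, so that count lies near the background. The median log2 fold change over all genes was -0.01 at a mean of at least 10 and 0.02 with no filter. Summed over the 19 genes, the normalized count was 484 ± 47.3 with DTHIB and 243 ± 15.6 with DMSO, a ratio of 1.99, and without PCDHGA8 it was 249 ± 32.5 with DTHIB and 118 ± 15.3 with DMSO. The 11 low genes alone summed to 87.5 ± 10.4 with DTHIB and 38.3 ± 6.14 with DMSO. The sums are not independent measurements, since the same genes enter more than 1 of them. Between 27.6% and 64.4% of the exonic bases of the 9 gamma genes are shared with other gamma genes. The sources used here do not state how shared reads were treated. PCDHGC5 shares 43.7% of its exonic bases, yet its mean was 0.25, so reads over the constant exons were not counted for every gene. PCDHGA8 and PCDHGB4 also share exons outside the constant region.

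The alpha and beta clusters had few reads. No alpha gene had a mean above 6.10, and the 15 alpha genes summed to 13.3 ± 4.23 normalized counts with DTHIB and 9.27 ± 3.79 with DMSO. No beta gene had a mean above 3.73, and the 16 beta genes summed to 22.4 ± 4.80 with DTHIB and 10.2 ± 1.53 with DMSO. A higher mean with DTHIB was found in 8 of the alpha genes, with 6 at 0 in all libraries. In the beta cluster it was found in 11 genes, with 1 at 0. The direction was thus not particular to the gamma A and B genes.

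Of 16 tested genes listed as possible regulators of clustered protocadherins, 3 were higher and 10 lower, against 31.0% and 33.7% of all tested genes. Their median log2 fold change was -0.24, and the data do not show that each acts on these promoters. The maintenance DNA methyltransferase DNMT1 fell by 0.98 (adjusted p = 6.7e-13) to 3756 ± 209 with DTHIB, against 7388 ± 255 with DMSO. The cohesin subunits SMC1A and RAD21 fell by 0.65 (adjusted p = 4.1e-11) and 0.59 (adjusted p = 1.4e-09). The de novo methyltransferase DNMT3A rose by 0.52 (adjusted p = 8.9e-09). The part of these genes in the gamma cluster result was not tested.

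Of 17 tested regulators of epithelial and mesenchymal state, 3 were higher and 11 lower (median -0.15), against 31.0% and 33.7% of all tested genes. ESRP1, the splicing factor of epithelial cells, rose by 0.63 (adjusted p = 9.9e-12), and EHF, an epithelial ETS factor, fell by 0.33 (adjusted p = 2.7e-08). SNAI2, a repressor of CDH1, fell by 0.62 (adjusted p = 1.0e-07) and TCF4 by 0.30, or by 0.48 with the GC and length trend removed.

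Near the threshold of a mean of 10, the 3 genes just inside were PCDHGA6, PCDH17 and KRT72, with means of 10.2, 10.8 and 11.3 over all libraries. The 3 just outside were PCDHGB6, CDH23 and CLDN1, with 9.76, 9.13 and 8.54. PCDHGB6 averaged 13.4 ± 4.13 with DTHIB and 6.08 ± 1.75 with DMSO, CDH23 averaged 5.36 ± 1.74 with DTHIB and 12.9 ± 3.44 with DMSO, and CLDN1, the claudin of the skin barrier, averaged 3.05 ± 1.43 with DTHIB and 14.0 ± 2.36 with DMSO.

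The authors' deposited table, made with DESeq2, calls 24 of the 43 genes at the same threshold, 10 higher and 14 lower, all in the direction found here. The 6 genes called here alone, CDH13, CLDN23, KRT10, PCDHGA10, PCDHGA4 and PCDHGB2, are the ones whose calls also depended on single libraries, as did that of PCDH15.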

How the data were processed

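The 8 libraries fall into 2 groups of 4 by the labelled treatment. The submitters' processing notes name HISAT2 2.1.0, featureCounts 1.6.3, StringTie 1.3.4, Trimmomatic 0.36.5 and DESeq2 2.11.40.2 with GRCh38; settings, annotation release, strand and the handling of reads shared by genes were not found in the labels or files. The authors deposited a signal per gene and library, which is a DESeq2-normalized count. They also deposited a result table that gives a log2 fold change with its error, a Wald score and a raw and an adjusted p-value for each gene.

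Within each library the deposited values were whole multiples of a single step (100% within a tolerance of 0.01), so reads were recovered. On them edgeR 4.0.16 called 11130 genes and DESeq2 1.42.0 called 10283. The main test was limma 3.58.1 in R 4.3.3 (eBayes with an expression trend, no covariates, two-sided) on log2(normalized count + 1) over the 17194 genes with a mean of at least 10. The added 1 lowers fold changes of low genes, but a library at 0 can raise them: KRT15 fell by 2.14 on this scale, while the ratio of its group means was 0.299. limma called 11110 genes, and where no other tool is named an adjusted p is its own. The fit was tested on simulated data. No pair of libraries agreed within sampling noise (chi-square per gene of 2.39 to 5.20 within groups).

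Genes and lists were chosen with earlier results of these data known. Values are given for genes with a mean of at least 100, and below that for those that passed with an absolute log2 fold change of at least 1; each other list is shown by up to 4 genes with the smallest adjusted p. CDH2, CDH11, KRT5 and KRT17 and values of a few other low genes were chosen after their values were seen. Positions are GENCODE 29 on GRCh38. Promoter windows were found for 27 of the 43 genes. The alternatives tried were a pseudocount of 0.5 or 5, a minimum mean of 50 or none, TMM, quantile normalization, edgeR, DESeq2, a replicate block and each library left out. The removal of a trend with GC content and exonic length (splines with 4 degrees of freedom) and the group of gamma A and B genes were chosen after seeing the data.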

Additional observations from a re-analysis of the deposited data

Results flagged for a closer look

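In 5 of 86 groups of 4 libraries that were checked, 1 library lay far from the other 3, and chance flags about 1 group in 20. CDH1 in DMSO replicate 3 was 10405 normalized counts, against 10563 to 10589 in the other DMSO libraries, and is still below every DTHIB library. CDH3 in DMSO replicate 1 was 48.8, against 63.1 to 64.6, and is the value that makes the CDH3 groups overlap. KRT80 in DTHIB replicate 2 was 90.7, against 127 to 134. KRT72 in DTHIB replicate 4 was 5.98, against 9.38 to 9.99. PCDH7 in DMSO replicate 4 was 4695, against 5138 to 5180.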

How the results depend on the processing

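Of 754 values of single genes among the 43 under 18 alternatives, 695 kept their direction and side of the threshold. Of the others, 36 lost the call, 8 gained one with the same sign and 15 changed sign, in 17 genes in all. With a mean of at least 50 required, 23 of the 43 genes were tested, and 6 were higher; protocadherins higher numbered 1, claudins lower 3, cadherins lower 1 and gamma A and B genes higher 1. Without a filter, gamma A and B genes higher numbered 5 and cadherins lower 1, as with DESeq2 (1). With 1 library left out, calls over all genes numbered 10367 to 10893, those among the 43 were 10 to 15 higher and 14 to 16 lower, cadherins 2 to 3 higher and 1 to 2 lower, protocadherins 6 to 9 higher, claudins 4 to 5 lower, keratins 0 to 1 higher and 6 to 7 lower, and gamma A and B genes 5 to 8 higher. Cadherins lower numbered 1 without DTHIB replicate 2 or 4 or DMSO replicate 3 or 4, and keratins higher 0 without DTHIB replicate 4 or DMSO replicate 1 or 2. Sign changes were in genes that did not pass in the main test. CDH19 was 0.013 with TMM, 0.022 with edgeR, 0.022 with DESeq2 and 0.082 with the GC and length trend removed. With 1 library left out CDH19 was -0.080 to 0.13. CDH18 was 0.017 with that trend removed and -0.26 to 0.012 with 1 library left out. CLDN12 was 0.069 with that trend removed (adjusted p = 0.0381) and 0.063 after quantile normalization (adjusted p = 0.0328). It thus changed sign and passed as higher in both. PCDH1 was 0.044 after quantile normalization. CLDN14 was -0.36 to 0.097 and KRT14 -0.19 to 0.14 with 1 library left out. The cause was not tested. Replicate numbers did not pair the libraries, with correlations of deviations of -0.072 to 0.014; a replicate block called 11058 genes and lost 1 call of the 43, PCDHGB2 (0.58, adjusted p = 0.0677). Depth limits genes near a mean of 10, whose counting error is largest.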
